A study of Gallus gallus with 9 samples.

Results

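Genes that held 5 or more listed methylation regions were described in chicken sperm. Their members were the Ensembl gene IDs found on at least 5 rows of the deposited region list, with the version suffix of the ID ignored, and 164 of 3626 gene IDs met this rule. They held 1126 of the 6428 listed regions. The libraries were reduced representation bisulfite sequencing (RRBS) of sperm from mature Cobb males, 1 library a bird, with 4 F0EHC and 5 F0C birds. F0EHC birds hatched from heat-conditioned eggs, which from embryonic day 7 to 16 spent 12 h a day at 39.5 °C, with the relative humidity raised to 65%. For F0C birds the incubator stood at 37.8 °C and its humidity at 56% until hatch, for 21 days. All chicks were then reared alike, in rooms at 32 °C and from day 7 after hatch at 30 °C. Heat and humidity cannot be told apart in this design. Each value below is the mean methylation level of a region in 1 bird, in percent, as the authors deposited it, and a difference is F0EHC minus F0C in percentage points.

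In DNA methylation a methyl group is carried by cytosine, in vertebrates mostly where a guanine follows. RRBS reads the fragments that an enzyme cutting at CpG-rich sites releases, so it samples CpG islands and promoters densely and most of the genome sparsely. Unmethylated cytosines are converted and read as thymine, which gives the share of molecules methylated at each site. In sperm CpG-rich promoters are usually unmethylated while most other CpGs are methylated, and chicken microchromosomes are gene dense and CpG rich.

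The members were chosen by their number of regions and not by level or direction. The largest member, ENSGALG00000016245 on chromosome 1, held 21 regions, and the median member held 6. Of the 164 genes, 62 held exactly 5 regions, while 139 gene IDs held exactly 4 and fell just outside. The median level was 47.1% in genes with 5 regions and 48.0% in those with 4, the median absolute difference was 5.26 and 4.90 points, and 47.7% and 53.8% of regions were higher in F0EHC. From the first to the last region a gene spanned between 290 bp and 242 kb, with a median of 12.5 kb. All regions of a gene lay on 1 chromosome. Regions were short, with a median length of 74 bp in the members and 72 bp over the whole list. When regions within 500 bp were joined, the 1126 regions formed 778 loci, 3 genes were a single locus, and in 33 genes no regions could be joined.

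Member genes stood mostly on the small chromosomes. On chromosomes 11 and above lay 106 of them, or 64.6%, against 45.9% of all gene IDs with a listed region. Chromosomes 1 to 5 held 21 members, or 12.8%, against 27.0% of all gene IDs. Chromosome 28 held 13 members, chromosome 12 held 11 and chromosome 19 held 10. RRBS covers CpG-rich chromosomes more densely, and how many CpGs each gene offered was not analysed here, so the part of coverage in these counts was not tested.

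Symbols could be given to 33 of the 164 genes, and the other 131 are named by their ID. The ID is that of the feature the authors assigned to a region, and it does not place the region inside the gene.

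Most of the genes held regions of unlike level. A region under 20% and another over 40% occurred together in 89 genes, and the median range between the lowest and highest region of a gene was 40.5 points. Both values rise with the number of regions in a gene. They were not compared with regions taken from different genes, so they do not show that levels within a gene are unusually unlike. In 8 genes all regions were under 20%, and in 37 all were over 40%. Member regions between 40 and 60% made up 56.0% of the members, against 44.9% of all listed regions, and those under 5% made up 7.19%, against 18.5%. ENSGALG00000016245 showed the contrast within 1 gene. Its regions averaged between 2.34 and 66.7% over the 9 birds.

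The first question was whether the regions of a gene moved in one direction. They seldom did. All regions were higher in F0EHC in 8 genes and all were lower in 3, so 11 of 164 genes (6.71%) had 1 direction and 153 were mixed. Over all 1259 gene IDs with 2 or more regions the share in 1 direction was 39.5%. It was 54.0% with 2 regions, 34.0% with 3 and 19.4% with 4, so the share shrinks with the number of regions and the members continue that order. Equal numbers of higher and lower regions occurred in 20 genes, and 57 genes had at least 80% of their regions in 1 direction. Of the member regions 584 were higher and 542 lower, which makes 51.9% higher against 56% over the list. The gap was widest at low levels. Of the 81 member regions under 5%, 42 were higher (51.9%), against 68.2% of the 1109 listed regions at that level outside the member genes, a gap that was not tested.

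**Figure D1:**
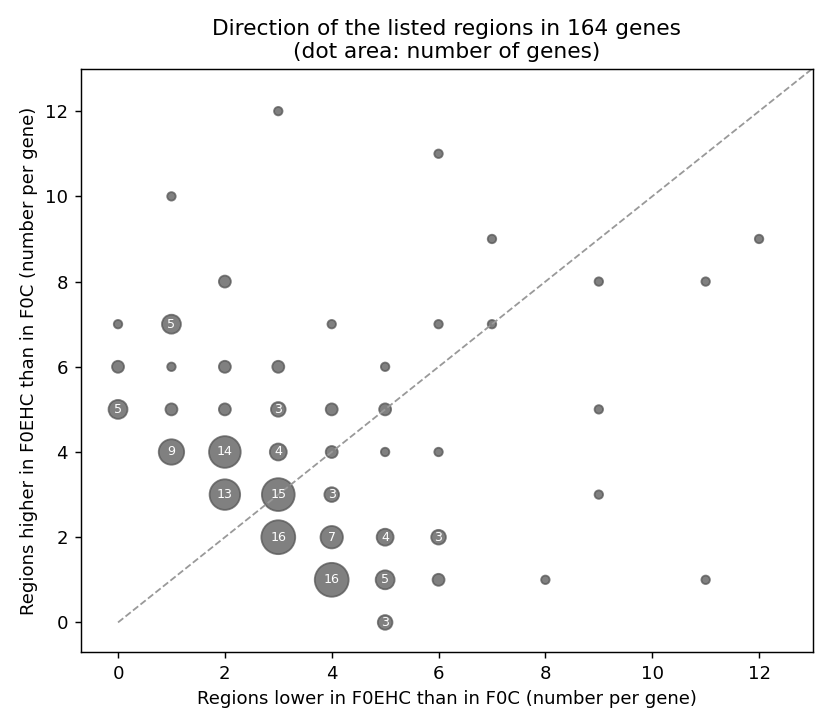
Each dot stands for the genes with a given number of regions lower in F0EHC than in F0C (horizontal axis) and higher in F0EHC than in F0C (vertical axis), its area and, from 3 genes on, its number giving how many of the 164 genes share the place. The dashed line marks equal numbers, 8 genes lie on the vertical axis with no lower region, and 3 lie on the horizontal axis with no higher region.

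Differences of single regions were mostly a few points, and none passed adjustment over the list. The median absolute difference was 5.13 points in the members and 4.55 over the list, and 91 member regions (8.08%, background 6.81%) differed by at least 10 points. In limma, fitted over all 6428 regions with Benjamini-Hochberg adjustment, 0 regions had an adjusted p under 0.05, among the members and over the list (background 0%), and the smallest adjusted p was 0.256. At an unadjusted p under 0.05 limma called 164 member regions, 102 higher (background 12.9%) and 62 lower (background 6.29%), which is 14.6% together against a background of 19.2%. The 4 F0EHC birds did not overlap the 5 F0C birds in 64 member regions (5.68%, background 7.79%). Of these 34 were higher (background 4.81%) and 30 lower (background 2.99%), and they lay in 51 genes. The share of all gene IDs with such a region was not counted. The list is far longer than the set of regions the study names as differentially methylated, and the cut-off for entering it is not given in the sources used here. The regions had been listed on these same libraries, so no count here is independent evidence of a difference.

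Averaging the regions of a gene for each bird gave 1 value a gene and bird. The gene mean was higher in F0EHC in 86 genes and lower in 78, and in 85 genes the difference was under 2 points. In limma over 3608 gene IDs, 0 members had an adjusted p under 0.05 (background 0%), the smallest adjusted p being 0.218. At an unadjusted p under 0.05 limma called 10 members, 8 higher and 2 lower, or 6.10% against a background of 22.6%. A two-sided exact permutation test over the 126 ways of drawing 4 of 9 birds, whose smallest possible p is 0.00794, gave p under 0.05 in 20 members (12.2%, background 21.4%). None stayed under 0.05 after adjustment over all gene IDs, where the smallest value was 0.171. Gene means did not overlap between the groups in 9 members, or 5.49%, against a background of 7.95%. They were lower in F0EHC in SLC12A5 and higher in ASIC4, MOGS, BAHCC1 and 5 genes without a symbol. No background for gene means was split by direction, so the surplus of higher members is not set against one. Over all listed regions limma also called more higher (12.9%) than lower (6.29%) at an unadjusted p under 0.05. The backgrounds for gene means are unlike the members, since 2367 of the 3626 gene IDs held 1 listed region, which is not averaged. A member mean averages at least 5 regions, mostly of mixed direction, whose differences can cancel.

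**Figure D2:**
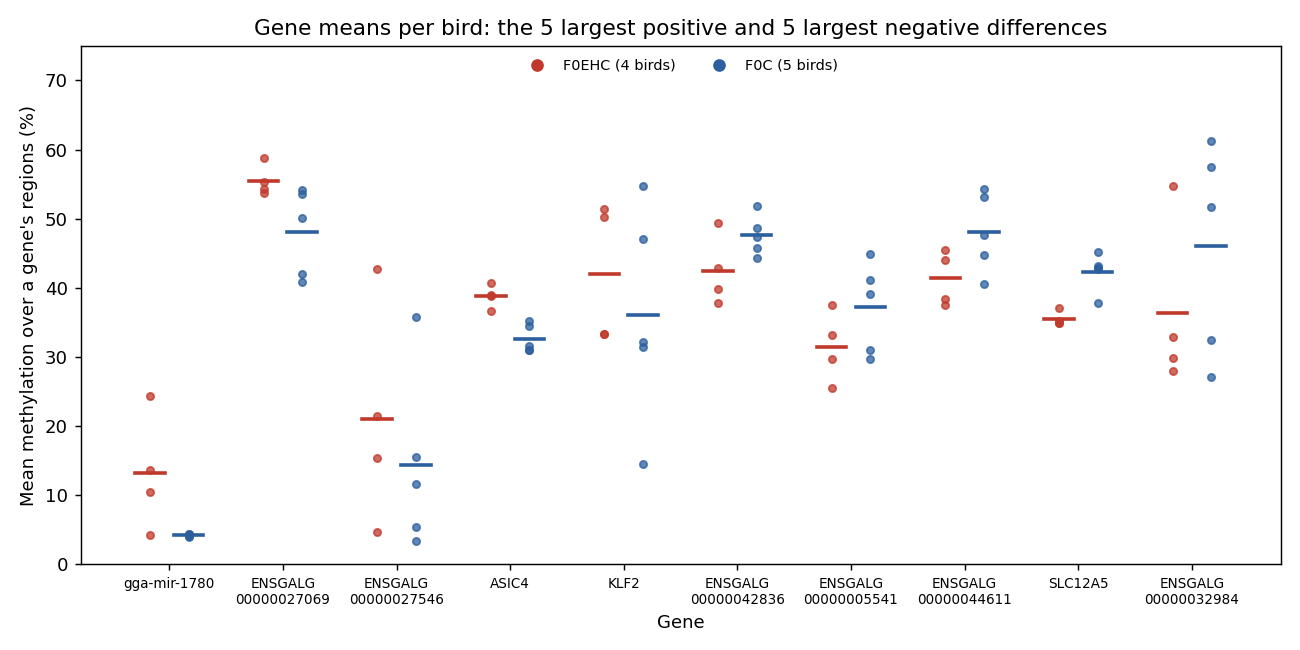
Mean methylation over the regions of a gene, in percent, for the 5 genes with the largest positive and the 5 with the largest negative difference, each dot a bird, each bar the mean of its group and F0EHC left of F0C. In SLC12A5 and ASIC4 the groups do not overlap, whereas in KLF2, ENSGALG00000027546 and ENSGALG00000032984 birds of both groups spread widely and overlap.

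The second question was whether the same birds differed at all regions of a gene. Each bird's value was taken relative to its group mean, and regions of a gene were correlated over the 9 birds. Over 3924 pairs of regions the median Pearson r was 0.113, and 40.7% of pairs had r below 0. For member regions on different chromosomes the median was 0.0723, and 43.3% of pairs had r below 0. Genes with more regions weigh more in the pooled median, since they give more pairs. The median of the gene medians was 0.0675, which is not above the median between chromosomes. The points of every pair share the same 9 libraries and their depth. In 12 genes the median r was over 0.5, and in 48 it was below 0.

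Regions of a gene varied together mainly over short distances. The median r was 0.549 over 232 pairs up to 100 bp apart and 0.318 over 223 pairs between 100 and 500 bp. Beyond that it was 0.128 up to 2000 bp and 0.0541 between 2000 and 10000 bp, which is below the median between chromosomes. Over 1106 pairs between 10000 and 50000 bp the median r was 0.0830, and 49.0% of pairs had 1 direction. Pairs over 50000 bp apart, 132 in number, had a median r of 0.113 and 58.3% in 1 direction. Agreement in direction was likewise highest over short distances. The share of pairs in 1 direction was 69.8% up to 100 bp, 69.5% up to 500 bp and 51.8% up to 2000 bp. Between chromosomes it was 50.0%. Whether close regions were read on the same fragments was not tested. Among pairs at most 500 bp apart 83.9% of those with r over 0.5 had the same direction, against 55.4% of those with r below 0. Among pairs further apart these shares were 53.1% and 50.1%.

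**Figure D3:**
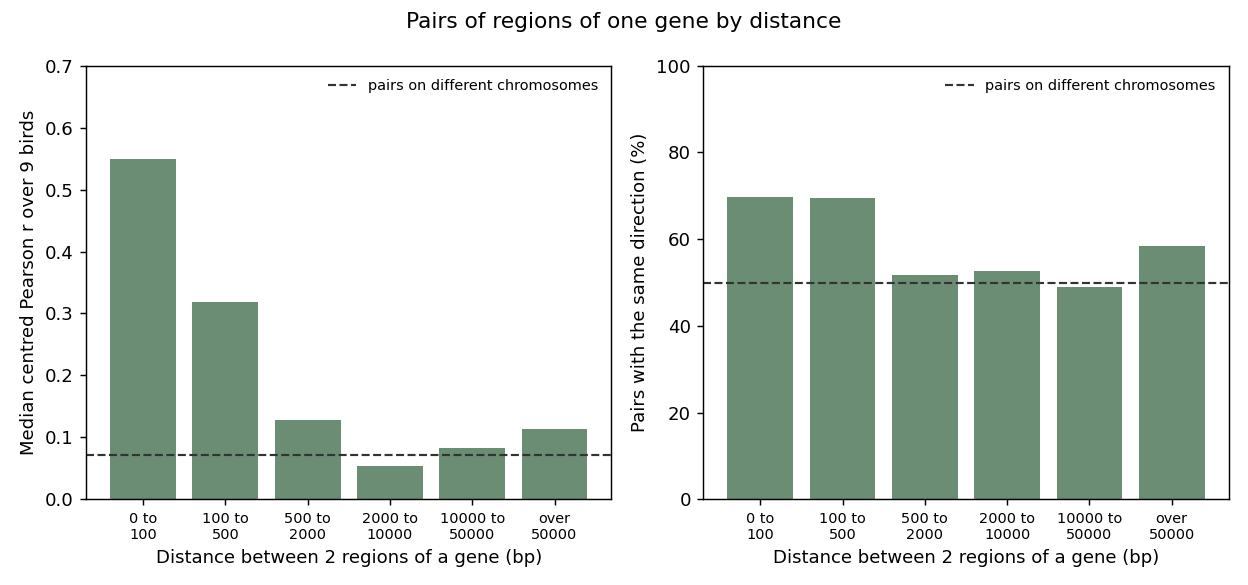
Left, the median Pearson r over 9 birds, each taken relative to its group mean, and right, the share of pairs with the same direction, in percent, both against the distance in bp between 2 regions of a gene. The dashed lines mark pairs of member regions on different chromosomes, at r 0.0723 and 50.0%, and from 500 bp on the bars lie nearer to them than below 500 bp.

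Clusters of at least 3 regions, each within 500 bp of the next, were then described, a rule that was set after these data were seen. There were 82 in 71 genes, holding 297 regions. Their median r was 0.288 and reached 0.972, and it was over 0.5 in 27 clusters and below 0 in 19. All regions had 1 direction in 43 clusters (52.4%), 24 of them higher and 19 lower, and 23 of the 27 clusters with r over 0.5 were among these. A cluster held 3 to 9 regions. Of gene IDs with 3 listed regions at any distance 34.0% had 1 direction, and of those with 4 regions 19.4%. With the other regions of its gene a cluster correlated at a median r of 0.0252.

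Of the 11 genes with 1 direction 4 also had a median r over 0.5, namely gga-mir-1780, KLF2, ENSGALG00000027546 and ENSGALG00000032984. The first, gga-mir-1780, ID ENSGALG00000025462, is a microRNA gene on chromosome 23 and had 7 regions, all higher in F0EHC (chr23:5054475-5059460, galGal5). The regions that carry an annotation are classed as intergenic. MicroRNAs are short RNAs that bind messenger RNAs and lower their output. In region 5 (chr23:5056159-5056282) methylation was 20.6, 31.2, 26.9 and 2.23% in F0EHC birds 1 to 4, against 3.08, 2.92, 1.71, 1.11 and 3.84% in F0C birds 1 to 5. F0EHC birds 1 to 3 stood far above every F0C bird, and F0EHC bird 4 lay among the F0C birds. The means were 20.2 ± 12.7% in F0EHC and 2.53 ± 1.10% in F0C (SD, n = 4 and n = 5), a difference of 17.7 ± 4.62 points (SE, limma adjusted p = 0.256). In region 6 (chr23:5056283-5056707) the F0EHC birds had 18.7, 29.3, 29.2 and 10.2% and the F0C birds 7.89, 6.00, 9.28, 9.86 and 8.09%, so the groups did not overlap. Regions 1 to 3 showed another pattern. In region 2 F0EHC bird 3 had 23.8%, and the other 8 birds lay between 0.149 and 4.48%. Region 7 differed least, with 10.8 ± 3.54% in F0EHC and 8.04 ± 1.85% in F0C (SD, n = 4 and n = 5).

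Over the 7 regions the gga-mir-1780 mean was 10.5, 13.7, 24.4 and 4.19% in F0EHC birds 1 to 4, against 4.40, 3.98, 4.36, 4.06 and 4.29% in F0C birds. The F0C birds lay within 1 point of each other, and F0EHC bird 4 lay among them. The difference was 8.98 ± 3.16 points (SE, limma adjusted p = 0.218; exact permutation p = 0.0317, adjusted 0.206 over all gene IDs), and it was 5.24 points without F0EHC bird 3. The median r between regions was 0.756, or 0.367 as Spearman's rho. It was 0.165 when F0EHC bird 3 was left out, so the likeness over all 7 regions rested on that bird. Regions 4 to 6 alone had a median r of 0.825, which was not computed without that bird. They averaged 18.7, 26.1, 28.4 and 5.22% in F0EHC birds 1 to 4 and 4.06 to 7.03% in F0C birds. The gene also held 26 of the 112 listed single cytosines in member regions, all higher in F0EHC. Summed over these sites, 22.3% (95% exact binomial interval 20.1 to 24.5), 26.5% (24.3 to 28.8), 31.0% (28.3 to 33.7) and 1.57% (0.998 to 2.35) of reads were methylated in F0EHC birds 1 to 4. In the F0C birds the share lay between 1.80% (1.15 to 2.69) and 6.55% (5.31 to 7.98). Reads summed over the sites were 1049 or more in each bird, and neighbouring cytosines share reads, so 1 molecule can count several times. The intervals treat these counts as independent and are too narrow even for counting error.

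KLF2, a zinc-finger transcription factor known from endothelium and resting T cells, held 6 regions on chromosome 28 (chr28:4399415-4408114), all higher in F0EHC. In region 1 F0EHC birds had 25.9, 28.0, 56.8 and 63.6% and F0C birds 10.4, 47.2, 54.6, 29.9 and 27.4%. F0C bird 1 was lowest, F0EHC birds 3 and 4 and F0C birds 2 and 3 were high, and the groups overlapped. The same birds stood high and low in regions 1 to 5. Region 3, for example, had 31.9, 33.3, 48.6 and 55.0% in F0EHC birds and 7.13, 44.2, 54.8, 30.9 and 27.3% in F0C birds. Region 6, the last of the gene and apart from the others, had 54.9 to 63.7% in F0EHC birds and 49.0 to 66.3% in F0C birds and did not follow them. The median r of the gene was 0.918 and the lowest pair reached -0.302. The gene mean differed by 6.04 ± 7.43 points (SE, limma adjusted p = 0.527), and the difference was 0.681 points without F0C bird 1, 3.32 and 2.94 points without F0EHC bird 3 or 4, and 10.7 points without F0C bird 3. The shared direction of regions 1 to 5 thus came with birds that kept their places in all 5.

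ENSGALG00000027546 on chromosome 16 behaved alike. Its 5 regions lay within 1.43 kb (chr16:217605-219038), all higher in F0EHC, with a median r of 0.904. In region 2 methylation was 6.76, 55.5, 39.4 and 24.2% in F0EHC birds and 6.83, 5.16, 23.5, 4.64 and 56.9% in F0C birds. F0EHC bird 2 and F0C bird 5 had the highest values of their groups in all 5 regions. The gene mean was 21.1 ± 16.0% in F0EHC and 14.4 ± 12.9% in F0C (SD, n = 4 and n = 5), a difference of 6.72 ± 7.81 points (SE, limma adjusted p = 0.506). Without F0EHC bird 2 it was -0.50 points, and it was 12.2 points without F0EHC bird 1, 12.1 without F0C bird 5 and 3.98 without F0C bird 4.

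The lowest difference of a gene mean was that of ENSGALG00000032984 on chromosome 10, whose 5 regions filled 290 bp (chr10:11763129-11763418) and were all lower in F0EHC. In region 3 the F0EHC birds had 28.7, 25.2, 44.8 and 35.7% and the F0C birds 31.0, 62.4, 64.2, 68.5 and 34.5%. F0C birds 2 to 4 were high in every region, F0C birds 1 and 5 were as low as most F0EHC birds, and F0EHC bird 3 stood with the high F0C birds in most regions. The gene mean was 36.4 ± 12.4% in F0EHC and 46.0 ± 15.3% in F0C (SD, n = 4 and n = 5). The difference of -9.63 ± 7.76 points (SE) had a limma adjusted p of 0.364, and the median r was 0.948. It was -15.7 points without F0EHC bird 3 and -5.81 points without F0C bird 3.

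**Figure D4:**
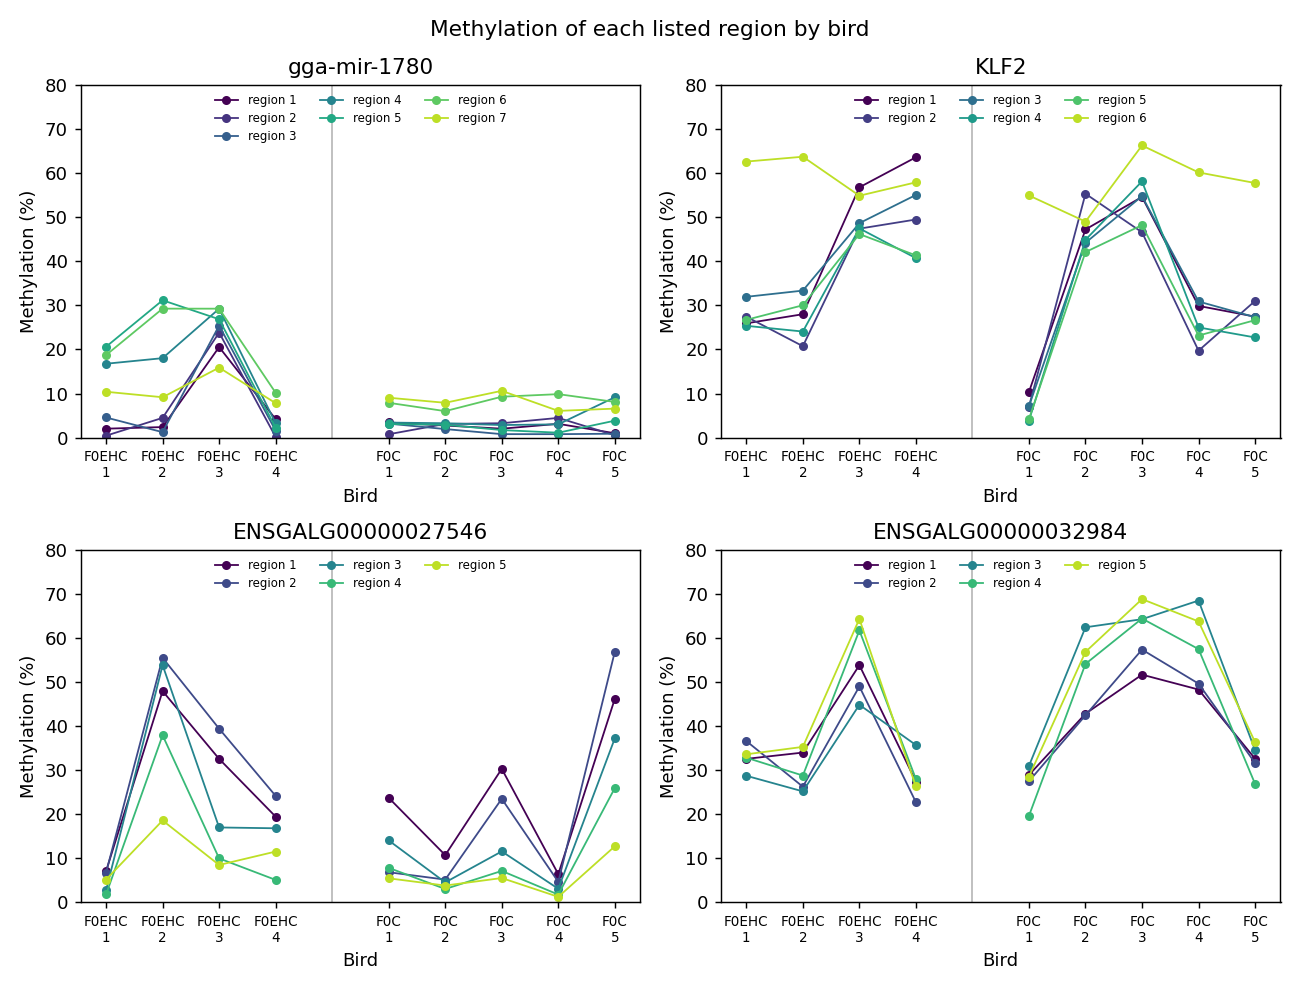
Methylation in percent (vertical axis) of every region of gga-mir-1780, KLF2, ENSGALG00000027546 and ENSGALG00000032984 in each bird (horizontal axis), F0EHC birds left of the grey line and F0C birds right of it, 1 line a region. The lines run together in ENSGALG00000027546, in ENSGALG00000032984 and in regions 1 to 5 of KLF2, in gga-mir-1780 regions 1 to 3 are high in F0EHC bird 3 only, and high and low birds occur in both groups in all but gga-mir-1780, where F0C birds stay under 11%.

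ENSGALG00000033857, on a contig assigned to chromosome 4 without a position on it, had a median r of 0.771 although its directions were mixed. In region 3 the F0EHC birds had 23.3, 27.7, 24.7 and 1.68%, and the F0C birds 1.48, 19.7, 17.7, 1.08 and 25.2%. F0EHC bird 4 and F0C birds 1 and 4 were near 0 there and low in regions 4 and 5. The gene mean differed by 1.95 ± 4.53 points (SE, limma adjusted p = 0.738), and by -0.17 to 6.33 points when each bird was left out in turn.

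SLC12A5 and ASIC4 were the opposite case, with most regions in 1 direction but a low median r. It was 0.172 in SLC12A5 and -0.192 in ASIC4, against 0.113 over all pairs within member genes. Both genes were among those with the largest gene mean differences, a choice that favours regions of 1 direction. SLC12A5, ID ENSGALG00000042199, encodes the potassium-chloride cotransporter that keeps chloride low in mature neurons, and 11 of its 12 regions over 17.7 kb of chromosome 20 (chr20:10776840-10794499) were lower in F0EHC. In region 3 (chr20:10778048-10778126), where a listed site is annotated to the promoter and start site, F0EHC birds had 5.28, 3.58, 5.53 and 4.16%, against 16.2, 9.18, 16.5, 11.4 and 10.3% in F0C birds. The groups did not overlap, and the difference was -8.08 ± 2.11 points (SE, limma adjusted p = 0.256). In region 9 (chr20:10789048-10789073), annotated as intron, the F0EHC birds had 49.8, 40.1, 38.2 and 44.4% and the F0C birds 61.6, 49.5, 59.8, 59.4 and 63.0%. Only F0C bird 2, at 49.5%, fell below the highest F0EHC bird. This region had the largest difference of the gene, -15.5 ± 3.54 points (SE). Region 2 was the exception, with 16.3 ± 2.87% in F0EHC and 12.7 ± 3.93% in F0C (SD, n = 4 and n = 5).

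The SLC12A5 gene mean was 35.2, 37.1, 35.0 and 35.0% in F0EHC birds and 42.8, 37.8, 45.2, 42.9 and 43.1% in F0C birds. The highest F0EHC bird lay just under the lowest F0C bird. The difference was -6.80 ± 2.23 points (SE, limma adjusted p = 0.218; exact permutation p = 0.0159, adjusted 0.182 over all gene IDs), and it stayed between -7.94 and -6.09 points when each bird was left out in turn. The median r between its regions was 0.172.

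ASIC4, of the acid-sensing ion channel family, ID ENSGALG00000011250, held 8 regions over 11.5 kb of chromosome 7 (chr7:22221734-22233274), 7 of them higher in F0EHC. In region 8 (chr7:22233147-22233274) methylation was 53.0, 53.0, 48.4 and 53.6% in F0EHC birds, against 28.2, 32.0, 41.2, 45.3 and 39.8% in F0C birds, without overlap. The difference was 14.7 ± 3.92 points (SE, limma adjusted p = 0.256). In region 5 F0C bird 2 stood highest at 52.5%, above the 23.7 to 39.0% of the F0EHC birds, and region 4 was lower in F0EHC by 3.39 points. The gene mean was 38.9, 36.6, 38.8 and 40.7% in F0EHC birds and 31.0, 35.2, 34.5, 31.5 and 31.0% in F0C birds. The groups did not overlap, the difference was 6.12 ± 2.21 points (SE, limma adjusted p = 0.218; exact permutation p = 0.00794, adjusted 0.171 over all gene IDs), and the median r was -0.192.

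TNK2, ID ENSGALG00000027983, encodes a non-receptor tyrosine kinase and held 17 regions over 16.6 kb of chromosome 9 (chr9:14999405-15016000), 11 higher and 6 lower. Higher and lower stretches followed each other in order of position. At region 2 (chr9:14999471-14999502) the listed sites are annotated as intergenic. This region had 44.0, 49.9, 46.7 and 43.2% in F0EHC birds and 26.4, 32.8, 32.1, 42.3 and 38.2% in F0C birds. Region 4 (chr9:15005098-15005173) had 35.5, 39.0, 41.4 and 42.8% in F0EHC birds and 53.6, 46.6, 48.4, 49.7 and 50.1% in F0C birds. The groups did not overlap in either, with differences of 11.6 ± 3.94 and -9.98 ± 3.02 points (SE, limma adjusted p = 0.256 each). Region 6 was also lower and region 11 also higher without overlap. From region 10 to 13, all within 374 bp and at low levels, the 4 regions were higher in F0EHC by 2.66 to 8.75 points. The gene mean differed by 1.25 ± 2.05 points (SE, limma adjusted p = 0.635).

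**Figure D5:**
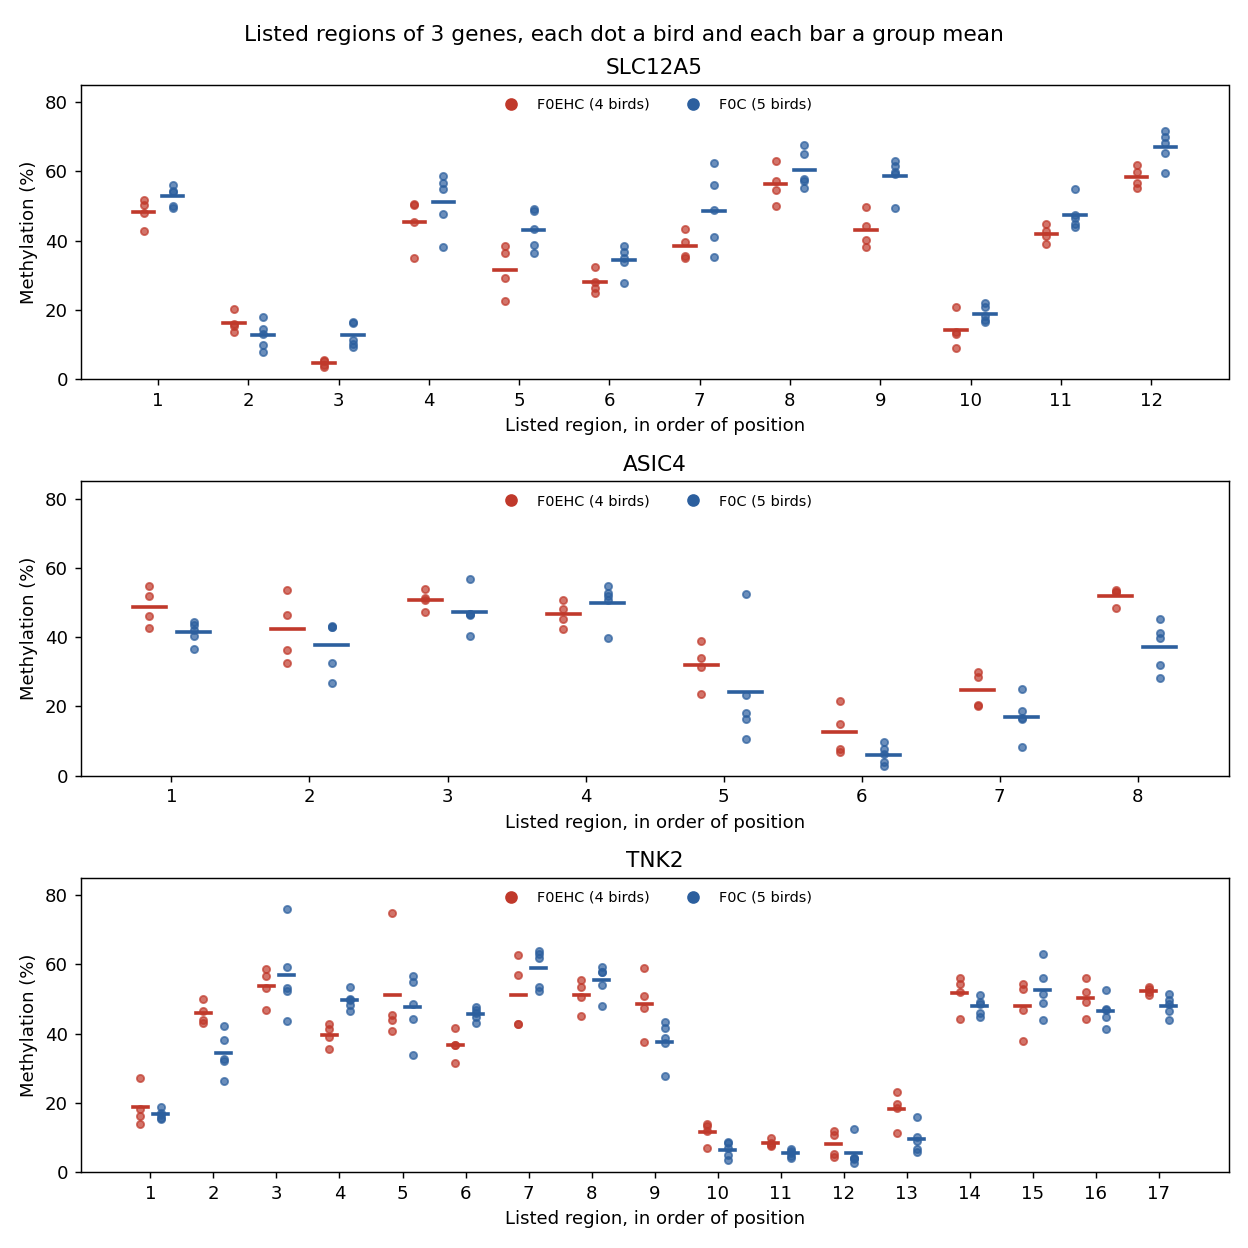
Methylation in percent (vertical axis) of the regions of SLC12A5, ASIC4 and TNK2 in order of position (horizontal axis), each dot a bird, each bar a group mean, F0EHC left of F0C. In SLC12A5 the F0EHC mean lies below in 11 of 12 regions, in ASIC4 above in 7 of 8, and in TNK2 above in 11 and below in 6 of 17.

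A higher and a lower region without overlap occurred together in 4 genes, which were TNK2, SRCIN1, ENSGALG00000005409 and ENSGALG00000024335. The share over all gene IDs was not counted. A gene with more regions can more easily hold both kinds, so the count is no result about the members. SRCIN1, an inhibitor of the kinase SRC, had 34.7, 19.7, 30.3 and 25.8% in F0EHC birds and 16.4, 18.7, 12.1, 15.3 and 15.2% in F0C birds at region 7 (chr27:4322837-4322921). At its region 2 the means were 8.02 ± 3.35% in F0EHC and 15.4 ± 2.07% in F0C (SD, n = 4 and n = 5). In ENSGALG00000024335 on chromosome 18, 8 regions were higher and 9 lower, and the gene mean differed by 0.03 points, the smallest among the 12 genes with the most regions.

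The other genes with many regions were mixed in the same way. ENSGALG00000016245 had 9 higher and 12 lower regions, AHDC1, which encodes a DNA-binding protein with AT hooks, had 8 higher and 11 lower, and MACF1, a linker of actin and microtubules, had 7 higher and 6 lower. GIT1, a scaffold and GTPase-activating protein for ARF proteins, had 6 higher and 5 lower, and ENSGALG00000002888 had 7 of each. Their gene means differed by at most 0.965 points in either direction, with limma adjusted p between 0.722 and 0.915. Their single regions did differ more. In region 4 of AHDC1 (chr23:2023684-2023732) the F0EHC birds had 65.4, 55.5, 58.9 and 43.4% and the F0C birds 50.6, 41.6, 45.8, 14.5 and 39.8%, with F0C bird 4 far below the rest. In the same gene region 17 was lower in F0EHC by 12.0 points. ENSGALG00000046181 on chromosome Z, with 12 higher and 3 lower, leaned most to one direction among the other genes with at least 12 regions. Its mean differed by 4.18 ± 3.14 points (SE, limma adjusted p = 0.339). The mean was 40.1, 54.2, 44.4 and 40.0% in F0EHC birds 1 to 4 and 37.8 to 42.8% in F0C birds, so F0EHC bird 2 stood far above the rest. ENSGALG00000039863 had 9 higher and 7 lower regions, ENSGALG00000043576 had 5 and 9, and ENSGALG00000041408 had 3 and 9.

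Among the genes with large differences of the mean, ENSGALG00000027069 on chromosome 4 had 5 higher regions and a median r of 0.108. Its mean was 55.5 ± 2.26% in F0EHC and 48.1 ± 6.33% in F0C (SD, n = 4 and n = 5). F0C bird 1 had 26.0% in region 1 and F0C bird 3 had 28.4% in region 3, so different birds were low in different regions. ENSGALG00000044611 on chromosome 27 had 4 of 5 regions lower and a mean difference of -6.69 ± 3.26 points (SE, limma adjusted p = 0.225), which was -3.85 points with regions weighted by length and -10.5 points as the median over regions. ENSGALG00000042836 on chromosome 2 had 5 of 6 regions lower and a difference of -5.13 ± 2.78 points (SE, limma adjusted p = 0.246). ENSGALG00000005541 on chromosome 4 had 6 of 7 lower and a difference of -5.67 points, which was -3.68 points without F0EHC bird 3, -3.74 without F0C bird 4 and -9.07 as the median over regions. Its first 4 regions, within 484 bp, averaged 12.1, 5.94, 4.75 and 25.4% in F0EHC birds and 23.8, 8.43, 27.5, 25.7 and 5.49% in F0C birds with a median r of 0.917, and with the rest of the gene they correlated at -0.0499.

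Some genes outside the naming rule are given because of their values. HIC1, a zinc-finger repressor known as a tumour suppressor, had 8 regions on chromosome 19, 2 higher and 6 lower. Its region 3 (chr19:5522360-5522403), annotated as intron, had 7.20, 5.19, 15.9 and 6.38% in F0EHC birds and 36.0, 19.9, 22.1, 38.6 and 22.5% in F0C birds. The groups did not overlap, and the difference of -19.1 ± 4.80 points (SE, limma adjusted p = 0.256) was the largest negative one among the member regions. The 8 listed sites in it gave between 4.46% (95% exact binomial interval 2.85 to 6.61) and 13.0% (9.88 to 16.6) methylated reads in F0EHC birds. In F0C birds they gave between 20.7% (17.2 to 24.5) and 40.0% (34.9 to 45.3). Reads are summed over neighbouring sites that share them, so these intervals are too narrow. Region 4 of HIC1, the next along the gene (chr19:5522912-5523000), was higher in F0EHC, with 60.2 ± 5.41% in F0EHC and 49.0 ± 5.87% in F0C (SD, n = 4 and n = 5).

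PIPOX, a peroxisomal oxidase of pipecolic acid and sarcosine, held the largest positive difference among the member regions, 19.8 ± 7.51 points (SE, limma adjusted p = 0.256) at chr19:5931264-5931380. There the F0EHC birds had 40.9, 61.3, 69.7 and 49.7% and the F0C birds 17.0, 32.0, 38.2, 57.6 and 33.4%, and F0C bird 4 overlapped. Over this and the next 3 regions the birds kept their places, with a median r of 0.891 and means of 13.8, 39.6, 58.5 and 18.6% in F0EHC birds and 7.75, 12.1, 28.2, 35.4 and 32.2% in F0C birds.

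In other genes a region differed through 1 or 2 birds. APEH, which removes acylated amino acids from peptides, had 56.3% in F0EHC bird 3 at chr12:2473656-2474043 and at most 11.5% in the other 8 birds. The 8 listed sites in this region gave 61.7% methylated reads (95% exact binomial interval 56.4 to 66.8, of 350 summed reads) in that bird. Reads are summed over sites that share them, so this interval and that of ENSGALG00000039863 below are too narrow. SAMD4B, an RNA-binding protein of the Smaug family, had 53.2 and 35.1% in F0C birds 1 and 2 at chr32:35896-35964, against 0 to 2.08% in the F0EHC birds and 0 to 1.02% in the other 3 F0C birds. In ENSGALG00000039863 the 4 listed sites gave 40.5% (34.1 to 47.1, of 232 summed reads) in F0C bird 5 and at most 1.14% in the other 8 birds. At each of these places the other birds of both groups lay together.

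The deposited list of single cytosines gives the read depth that the region table lacks. Of its 1286 sites 112 (8.71%) lay in member regions, in 53 regions of 40 genes, and 124 member genes had none. Of the 112 sites 67 were higher and 45 lower, and all 112 had the sign of their region, as both lists come from the same reads. A site had a median of 50 reads a bird and at least 8. By bird the median was between 36.5 reads, in F0C bird 1, and 59 reads, in F0C bird 2. Over all member regions the mean level of a bird lay between 38.3 and 42.3% in F0EHC and between 37.7 and 41.7% in F0C, so no bird stood apart in level. The bird farthest from its group mean was F0C bird 1 in 14.1% of member regions and F0C bird 5 in 7.56%, the highest and lowest shares among the 9 birds.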

How the data were processed

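Sperm DNA of 9 birds was sequenced by RRBS. Per the study's methods the authors trimmed reads with Trim Galore, aligned them to galGal5 with Bismark and Bowtie, called regions with metilene and single sites with edgeR. The deposited region table gives the mean methylation percent of each region and library, each library kept apart, with read depth unknown. The deposited site table gives counts of methylated and unmethylated reads and their percent, and listed sites have at least 8 reads in every bird. Neither list is a random sample, since both come from the authors' callers run between these groups. The region list is far longer than the set the study names as differentially methylated, so being listed is not taken as a call. Region starts in the file count from 0, since 30 listed sites fall 1 base after a start and 5 on it, so starts are given here 1 higher.

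Gene IDs were counted without version suffix (163 genes with it, 164 without). Symbols came from the study's supplementary tables, 10 paired with the ID and 23 through the position of a listed site. Of 25 IDs named both ways 24 had the same name. Of 31 missing control values 2 lay in member regions (ENSGALG00000016245 and PDE4C); gene means and correlations used regions with all 9 values, and limma dropped the missing value. Tests were limma 3.58.1 with trend in R 4.3.3 on the percents, over all regions and over all gene means, and an exact permutation test (Python 3.11.15). The gene tests covered 3608 of the 3626 IDs, those with a complete region. In simulated data of 6397 regions, limma called 28 of 100 regions changed by 10 points and 87 of 100 changed by 30 points. It also called 4 unchanged regions. Both sizes were adjusted together, and the noise was independent, with the F0C spread in both groups. These shares thus need not hold in the real data. Alternatives were a log2 ratio scale, other gene summaries, no trend, each bird left out, a replicate block and other limits on regions and distance.

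Named genes were the 12 with the most regions, the 5 largest positive and negative mean differences, the 5 highest median correlations (regions with a median SD of at least 2 points), and the 3 mixed genes with the most regions in the rarer direction. The members and lists were chosen with earlier results of these data known. Labels do not say that birds came from separate hatches, so the spread is that between these birds. Sperm purity was not tested, since the lists hold no test of other cells' DNA.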

Additional observations from a re-analysis of the deposited data

Results flagged for a closer look

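Gene means of the 22 named genes were examined for a bird far from the others of its group, over 44 groups, of which chance flags about 1 in 20. In 2 of them a bird stood apart. For ENSGALG00000033857 F0EHC bird 4 had 2.90%, while the other F0EHC birds had 19.4 to 22.4%. For SLC12A5 (ENSGALG00000042199) F0EHC bird 2 had 37.1%, while the other F0EHC birds had 35.0 to 35.2%.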

How the results depend on the processing

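The count of regions and of gene means with an adjusted p under 0.05 stayed at 0 on a log2 ratio scale, with the replicate block and, for regions, without the trend, and, for gene means, with length weights or the median. Leaving out each bird gave 0 to 1 member regions, the 1 being region 5 of gga-mir-1780 without F0EHC replicate 4, and 0 gene means. At unadjusted p under 0.05 leaving out each bird gave 131 to 178 member regions and 6 to 12 gene means. The lowest count of gene means came without F0C replicate 1. With all birds the shares were 14.6% of member regions (background 19.2%) and 6.10% of member gene means (background 22.6%). The backgrounds without each bird are not given here, so these counts show only how far the number of calls moved. Member regions without overlap rose from 64 to between 88 and 123, as fewer birds have to be separated. Leaving out a bird can only add such regions, among the members as over the list. With all birds the share was 5.68% in the members against 7.79% over the list. The shares over the list without each bird are not given here, so the rise is no result about the members. The labels do not say whether equal replicate numbers link birds of the 2 groups. Over all regions r was between -0.0565 and 0.0693 for same-numbered birds and between -0.0414 and 0.0624 for the others. With so few birds these values cannot show whether equal numbers share a hatch or batch. With the replicate block over 8 birds 106 member regions and 4 gene means had an unadjusted p under 0.05, and the background of that fit is likewise not given.

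The share of genes in 1 direction was 12.5% with 4 or more regions, 2.94% with 6 or more and 19.9% with regions within 500 bp joined, each by its own construction, and 5.49 to 7.32% when each bird was left out. The median r was 0.0743 over pairs more than 500 bp apart, a limit chosen after the data were seen, and 0.0895 to 0.136 when each bird was left out. Gene means changed sign for ENSGALG00000027546 without F0EHC replicate 2 (-0.50 points) and for ENSGALG00000033857 without F0EHC replicate 3 (-0.17) and without F0C replicate 4 (-0.0027). Leaving out each bird moved the mean of the first between -0.50 and 12.2 points and that of the second between -0.17 and 6.33 points. The cause was not tested. Depth of the regions is unknown, and 4 against 5 birds limit every test.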
